A study of Mus musculus with 27 samples.

Results

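The late radiation response of the mouse rectum was read from 12 RNA-seq libraries, 6 from irradiated and 6 from sham mice, out of 27 libraries in the series. The 12 were chosen by their labels alone: irradiated and sham rectum at 2 weeks and at 8 weeks, with 3 mice in each of the 4 groups. All mice were female C57BL/6J (C57BL/6 in the labels), 8 to 10 weeks old when obtained, and each sham group was age-matched to its irradiated group. The dose, 25 Gy given once, was aimed at the lower pelvis with everything else behind lead, and sham mice went through anesthesia only. Nothing in the labels names separate litters or processing days, so the p-values below measure the spread between these mice only. Pooling the late times, with time as a block, sets 6 irradiated against 6 sham libraries and asks which genes changed alike in the subacute and the chronic stage of radiation proctitis.

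The rectum is lined by absorptive colonocytes, mucus-secreting goblet cells and hormone-secreting enteroendocrine cells, all renewed from stem cells at the base of the crypts, and is wrapped in connective tissue, vessels, nerves and smooth muscle. Radiation proctitis begins with loss of dividing crypt cells and, in its chronic form, is known for inflammation, abnormal small vessels and fibrosis, in which fibroblasts and myofibroblasts lay down and crosslink collagen. TGF-beta is the best known driver of such matrix deposition, and metalloproteinases and their inhibitors govern its turnover.

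The total count of the 12 libraries ran from 17966356 to 23281174, and no pair of libraries within a group differed by less than sampling noise. Sham rectum carried the distal colon gene Car1 at 975 to 1745 CPM (counts scaled to library size and between libraries by TMM) and the posterior patterning gene Hoxd13 at 184 to 218. Several irradiated libraries stood apart. At 8 weeks all 3 irradiated libraries held keratin and cornified envelope genes of squamous epithelium, with a summed level of 7365 to 8989 CPM against at most 59.4 CPM in the other 9 libraries. Irradiated mouse 1 at 8 weeks held pancreatic acinar enzyme transcripts (summed 12110 CPM, at most 2.46 CPM in any other late library), and irradiated mouse 3 at 8 weeks held skeletal muscle transcripts (3533 CPM, at most 49.4 CPM elsewhere). At 2 weeks the neutrophil genes summed to 26640 CPM at the highest and 1762 CPM at the lowest among the irradiated mice, mouse 2 being the mildest and nearest to sham. Without irradiated mice 1 and 3 at 8 weeks, 1918 of the 2261 core genes described below kept their place, and without irradiated mice 2 and 3 at 2 weeks 2071 did.

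Across 15566 genes tested, 2799 differed between irradiated and sham rectum over both late times (18%; adjusted p under 0.01 by edgeR's quasi-likelihood test and an absolute log2 fold change above 1, called DEGs here). Of these, 2299 were higher (14.8%) and 500 lower (3.21%) after irradiation, while the median over all genes tested was 0.02 on the log2 scale. Taken as separate comparisons of 3 against 3, the same libraries gave 867 DEGs at 2 weeks (5.86%) and 2224 at 8 weeks (14.7%), and 774 of the pooled DEGs, 633 higher and 141 lower, were DEGs in neither. In the fit of 4 group means, which shares 1 estimate of the spread over the 12 libraries, the order of the times was the other way, with 2288 DEGs at 2 weeks (14.7%) and 1868 at 8 weeks (12%). Examples were taken from the 774 pooled DEGs that were DEGs in neither comparison of 3 against 3, among the smallest p in each direction. The higher ones were Amotl2, a regulator of YAP and of endothelial junctions (1.01 ± 0.14, SE, n = 6 per arm), and the endothelial LIM protein gene Crip2 (1.14 ± 0.16). The lower ones were the diamine oxidase gene Aoc1 (-1.12 ± 0.14), the neuropeptide Y receptor gene Npy1r (-1.08 ± 0.14) and Plekha6 (-1.06 ± 0.13). Across these higher and lower examples, adjusted p-values in the pooled fit ran from 6.1e-05 to 0.00016.

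A DEG was counted as a late core gene when its log2 fold change passed 1 in the same direction at 2 weeks and at 8 weeks in a fit with a mean for each of the 4 groups. This held for 2261 genes (14.5%), 1918 higher (12.3% of genes tested) and 343 lower (2.2%). They made up 83.4% of the higher and 68.6% of the lower DEGs. Of the core, 112 higher and 93 lower entries were transcript models without a gene name, which are not described further. The higher core also held 6 of 25 squamous epithelium genes and the pancreatic gene Cpb1. Cpb1 stood at 1320 CPM in irradiated mouse 1 at 8 weeks and lost its call in 6 of 28 alternatives. The median core gene that was higher stood at 2.68 at 2 weeks and 2.20 at 8 weeks on the log2 scale, and 1264 of 1918 had the larger change at 2 weeks. Core genes that were lower had medians of -1.61 and -1.68. These values describe the genes the rule selected and are no test of it. At both times the irradiated and sham libraries did not overlap for 1704 higher and 329 lower core genes, beside 18% and 13.1% of all genes tested. The low-count filter was passed on sham libraries alone by all but 597 of the 1918 higher core genes (31.1%), so these 597 were tested only because they were detected after irradiation. Among all genes tested, 1123 of 15566 (7.21%) did not pass on sham libraries alone. Such genes could hardly have been called lower, so their direction is no support for the core. Leaving out each of the 12 libraries in turn, 1397 higher and 212 lower genes stayed in the core every time.

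**Figure D1:**
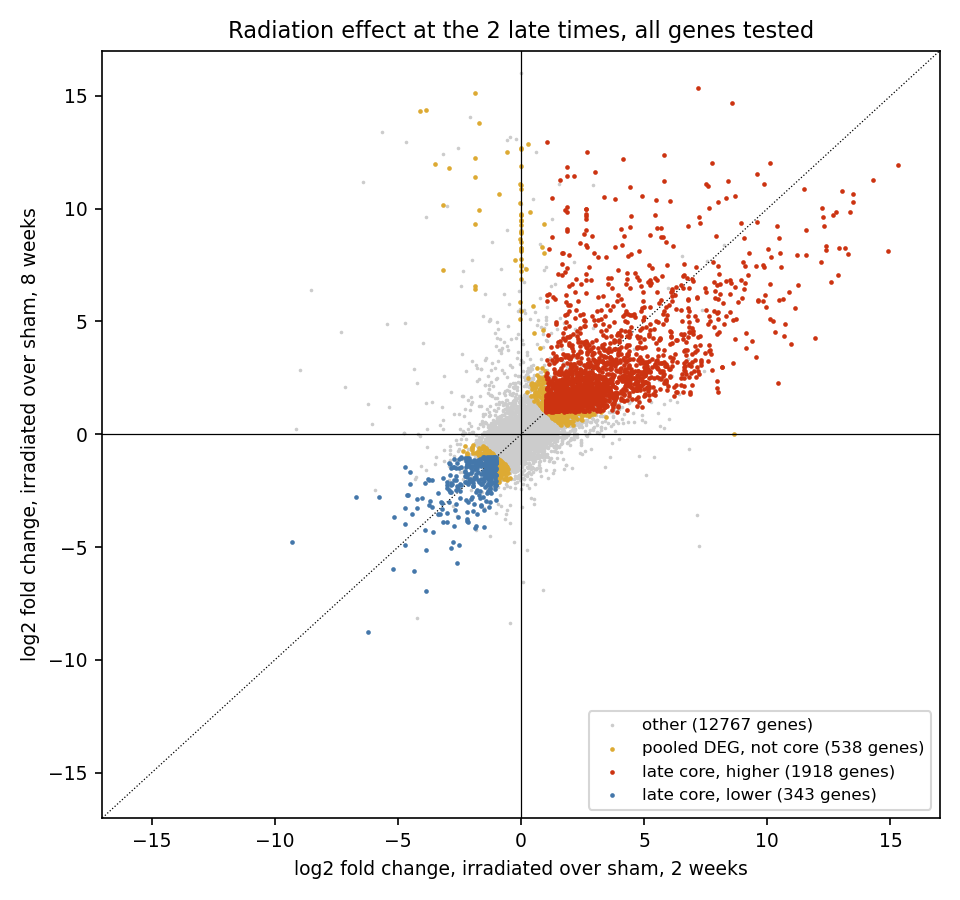
Log2 fold change of irradiated over sham at 2 weeks (horizontal) and at 8 weeks (vertical) for the 15566 genes tested, 1 point per gene, with equality as a dotted line. The 1918 higher core genes (red) fill the upper right and the 343 lower core genes (blue) the lower left, and the column of genes near 0 at 2 weeks with large values at 8 weeks holds the squamous genes.

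Because no library is shared between the 2 times, each time could be looked up in the other. Of 668 genes that were higher as DEGs at 2 weeks (3 against 3), 649 were tested at 8 weeks, where 542 were DEGs in the same direction beside 11.6% of all genes, and 645 had the same sign. Among 199 lower DEGs at 2 weeks, 195 were tested at 8 weeks, where 92 were lower DEGs (3.12% of all genes) and 189 had the same sign. In the reverse lookup the shares were smaller. Of 1752 genes higher as DEGs at 8 weeks, 1525 were tested at 2 weeks, where 542 were DEGs in the same direction (35.5%; 4.52% of all genes) and 1491 had the same sign. Of 472 lower DEGs at 8 weeks, 469 were tested at 2 weeks, where 92 were lower DEGs (19.6%; 1.35% of all genes) and 432 had the same sign. The test of the difference between the 2 effects called 199 genes at adjusted p under 0.05 (1.28%; 2553 at an unadjusted p under 0.05), among them 20 core genes. A missed threshold does not show that effects are equal: the 95% interval of the difference lay within 1 log2 unit for 232 of the 2261 core genes, and within it for 7542 of all 15566 genes. Asns, the asparagine synthetase gene and a target of the amino acid response, gave one of the narrowest intervals (8 weeks minus 2 weeks, -0.24 to 0.46). Mmp14 (-0.19 to 0.51), the macrophage and lipid transport gene Apoe (-0.71 to 0.35), the collagen gene Col4a2 (-0.87 to 0.21) and, among lower genes, Hnf4a (-0.59 to 0.57) and the bone morphogenetic protein gene Bmp2 (-0.73 to 0.10) were others.

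Connective tissue genes rose together at both late times. All 21 fibrillar collagen and crosslinking genes tested were higher at adjusted p under 0.05 (background 26.9% higher and 21.2% lower), 18 of them in the core, with a median log2 fold change of 2.27. That background applies to every list count over the pooled times below. Col1a1, which encodes the main fibrillar collagen chain (mm9, chr11:94797538-94814356), measured 114, 181 and 70.4 CPM in the sham libraries and 1623, 928 and 1700 in the irradiated libraries at 2 weeks, and 112, 72.8 and 88.3 and 989.9, 1324 and 1076 at 8 weeks. Every irradiated value lay above every sham value, and the pooled log2 fold change was 3.59 ± 0.25 (adjusted p = 1.8e-06; 3.54 at 2 weeks and 3.63 at 8 weeks). The type III collagen gene Col3a1 (2.80), Col5a2 (3.03), and the lysyl oxidases Loxl2 (3.12) and Lox (6.22), which crosslink collagen, changed in the same way. In bulk tissue a rise in the number of fibroblasts and a rise in RNA per fibroblast cannot be told apart, here or in the cell type lists below.

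Of 22 matricellular and provisional matrix genes, 21 were higher and 1 was lower (26.9% and 21.2% of all genes), with a median of 2.60. Biglycan (Bgn), a small proteoglycan that binds collagen, had 55.2, 73 and 52.8 CPM in the sham libraries and 540.3, 302 and 385 in the irradiated libraries at 2 weeks, and 75.4, 64.4 and 57.5 and 419, 433 and 488 at 8 weeks, without overlap of the groups (2.76 ± 0.15; 2.76 at 2 weeks and 2.76 at 8 weeks). The collagen-binding glycoprotein Sparc (2.99), tenascin C (Tnc, 3.65) and fibronectin (Fn1, 2.05) were also core genes, and the exception was Thbs4 (-0.74 ± 0.20, adjusted p = 0.0089), a thrombospondin that was not called at 2 weeks alone (adjusted p = 0.23). Basement membrane genes were more divided: 12 of 22 rose and 1 was lower, beside the same 26.9% and 21.2%. The type IV collagen pair Col4a1 (2.43) and Col4a2 (2.25) and Col18a1 (2.94), whose fragment is endostatin, rose, and Col4a6, a chain known from epithelial and smooth muscle basement membranes, stood at -0.85 ± 0.21 (adjusted p = 0.0063), a call lost with FPKM (adjusted p up to 0.14) and at each time alone. Outside the lists, Sulf2, a heparan sulfate sulfatase, had the smallest p of all genes (3.01 ± 0.12, adjusted p = 1.1e-07), at 11.3 ± 1.27 CPM in sham and 91.2 ± 11.3 CPM in irradiated rectum (SD, n = 6 each). Adam12, a metalloprotease of activated fibroblasts, stood at 5.02. Both were chosen after their values were seen.

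Matrix metalloproteinases and their inhibitors had 14 of 17 members higher and 2 lower (26.9% and 21.2% of all genes), with 12 in the core. Mmp3, stromelysin 1, had 0.767, 1.94 and 0.917 CPM in the sham libraries and 580, 144 and 184 in the irradiated libraries at 2 weeks, and 0.507, 0.102 and 0.414 and 45.5, 28.2 and 29.3 at 8 weeks. The irradiated values exceeded the sham values at both times, and the higher effect at 2 weeks did not pass the test of the difference (7.96 at 2 weeks and 6.63 at 8 weeks; adjusted p = 0.56). Mmp10, stromelysin 2 (8.42 ± 0.60), and Mmp13, the main rodent interstitial collagenase (7.70 ± 0.70), followed it. Mmp7, an epithelial metalloproteinase, was detected with 4 counts over the 6 sham libraries, all in mouse 3 at 2 weeks, and ranged from 8.78 to 35.0 CPM after irradiation. The membrane-bound Mmp14 gave the smallest p of the list at a modest change (1.66 ± 0.08, adjusted p = 2.3e-07), at 66.4 ± 3.44 CPM in sham and 210.3 ± 23.4 CPM in irradiated rectum (SD, n = 6 each). Timp1, a secreted inhibitor of these enzymes, measured 0.307, 1.33 and 0.612 CPM in the sham libraries and 335, 96.8 and 148 in the irradiated libraries at 2 weeks, and 0.507, 0.46 and 0.517 and 56.5, 138 and 72.4 at 8 weeks, again without overlap (7.76 ± 0.47). Timp4 was the lower member with the smaller p (-0.88 ± 0.20, adjusted p = 0.0038), not called with FPKM (adjusted p up to 0.15) or at 8 weeks alone. Mmp2, gelatinase A, stood at 2.87 ± 0.19.

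The promoters of Mmp3, Mmp10, Mmp13 and Mmp7, neighbors on chromosome 9 and all in the core, are printed because each holds an AP-1 motif, the sequence that Fos and Jun dimers are known to bind. Each window runs from 250 bases before to 50 after the annotated gene start, 5′ to 3′ (mm9 genome, GENCODE vM1), with TGANTCA in capitals on either strand.
Mmp3, chr9:7445572-7445871, plus strand: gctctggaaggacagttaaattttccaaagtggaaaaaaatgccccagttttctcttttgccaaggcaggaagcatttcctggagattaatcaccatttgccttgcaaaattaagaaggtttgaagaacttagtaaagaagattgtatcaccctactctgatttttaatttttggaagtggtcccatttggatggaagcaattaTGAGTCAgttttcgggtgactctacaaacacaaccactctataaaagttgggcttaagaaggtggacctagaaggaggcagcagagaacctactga
Mmp10, chr9:7502102-7502401, plus strand: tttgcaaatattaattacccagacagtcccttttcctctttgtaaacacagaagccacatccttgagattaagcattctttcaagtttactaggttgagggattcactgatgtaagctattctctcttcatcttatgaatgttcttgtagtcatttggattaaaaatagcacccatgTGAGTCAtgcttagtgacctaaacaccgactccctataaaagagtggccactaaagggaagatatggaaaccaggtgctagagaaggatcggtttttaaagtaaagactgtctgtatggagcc
Mmp13, chr9:7272264-7272563, plus strand: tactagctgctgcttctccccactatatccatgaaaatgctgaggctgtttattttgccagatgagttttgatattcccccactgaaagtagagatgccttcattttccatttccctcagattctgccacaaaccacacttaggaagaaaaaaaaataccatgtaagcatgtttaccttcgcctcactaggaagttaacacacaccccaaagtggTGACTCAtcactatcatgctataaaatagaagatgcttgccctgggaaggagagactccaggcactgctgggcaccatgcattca
Mmp7, chr9:7691836-7692135, plus strand: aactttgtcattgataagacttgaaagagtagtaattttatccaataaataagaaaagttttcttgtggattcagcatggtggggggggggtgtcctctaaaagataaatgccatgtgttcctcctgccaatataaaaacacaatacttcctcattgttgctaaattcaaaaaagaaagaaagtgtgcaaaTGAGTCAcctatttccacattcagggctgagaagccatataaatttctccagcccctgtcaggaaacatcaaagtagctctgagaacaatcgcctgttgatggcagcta
The match began 46, 73, 35 and 59 bases before the start of Mmp3, Mmp10, Mmp13 and Mmp7. Such a match was present in 173 of 1767 higher core promoters (9.79%), in 13 of 240 lower core promoters (5.42%) and in 810 of the 14371 promoters of all genes tested (5.64%). A match is a description of letters in this window, not evidence of a bound factor. The other motifs searched on both strands were TTCNNNGAA (STAT; 8.77% of higher core, 2.92% of lower core and 6.93% of all promoters), TTGCNNAA (C/EBP; 13%, 10.8% and 9.11%), TTTATNG (CDX; 10.9%, 11.2% and 7.87%), CAAAGTCCA (HNF4; 0.623%, 0.417% and 0.438%), the NF-kB motif (12.7%, 11.2% and 10.3%) and the CArG box of serum response factor (0.905%, 1.67% and 1.25%). The searches are not exclusive, so 1 window can count for several motifs.

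Genes of TGF-beta signaling and of the myofibroblast had 17 of 20 members higher (26.9% of all genes). Grem1, a secreted antagonist of bone morphogenetic proteins made by crypt-surrounding stromal cells, had 57.8, 66.5 and 38.6 CPM in the sham libraries and 1481, 715 and 1037 in the irradiated libraries at 2 weeks, and 34.5, 37.5 and 30.3 and 448, 767 and 393 at 8 weeks. Its values did not overlap between the arms (4.14 ± 0.25, adjusted p = 9.2e-07). The latent TGF-beta binding protein gene Ltbp2 (5.61), follistatin (Fst, 3.79), an activin antagonist, and Tgfb1 itself (2.30 ± 0.27) were core genes as well. The connective tissue growth factor gene Ctgf, which responds to TGF-beta and to YAP, stood at 3.03 ± 0.22. In contrast, 9 of 13 smooth muscle genes were lower (21.2% of all genes), with a median of -0.61. Mylk, encoding myosin light chain kinase, had 691, 818 and 582 CPM in the sham libraries and 226, 238 and 240 in the irradiated libraries at 2 weeks, and 605, 579 and 549 and 303, 304 and 344 at 8 weeks, a change of -1.22 ± 0.14 (-1.57 at 2 weeks and -0.87 at 8 weeks). The sham values lay between 549 and 818 CPM and the irradiated ones between 226 and 344. Smtn (-1.05) and Pln, the phospholamban gene (-2.05), were lower too. Only Pln of this list met the core rule.

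All 20 coagulation and plasminogen genes tested were higher (26.9% of all genes), 18 of them in the core, with a median of 3.39. Plat, tissue plasminogen activator, measured 5.98, 9.79 and 6.42 CPM in the sham libraries and 104, 50.9 and 75.1 in the irradiated libraries at 2 weeks, and 5.48, 4.45 and 3.31 and 40.8, 79.9 and 23 at 8 weeks (3.40 ± 0.31). Serpine2, a protease inhibitor of thrombin and urokinase (3.86 ± 0.19), and the broad inhibitor alpha-2-macroglobulin (A2m, 7.30 ± 0.48) moved alike. Complement genes rose in 19 of 20 cases: C3, the central component, from 92.2 ± 29.8 CPM in sham to 1702 ± 1019 CPM in irradiated rectum (SD, n = 6 each; log2 fold change 4.15 ± 0.42), with C4b (3.17), C1s1 (2.54) and C6 (4.91).

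**Figure D2:**
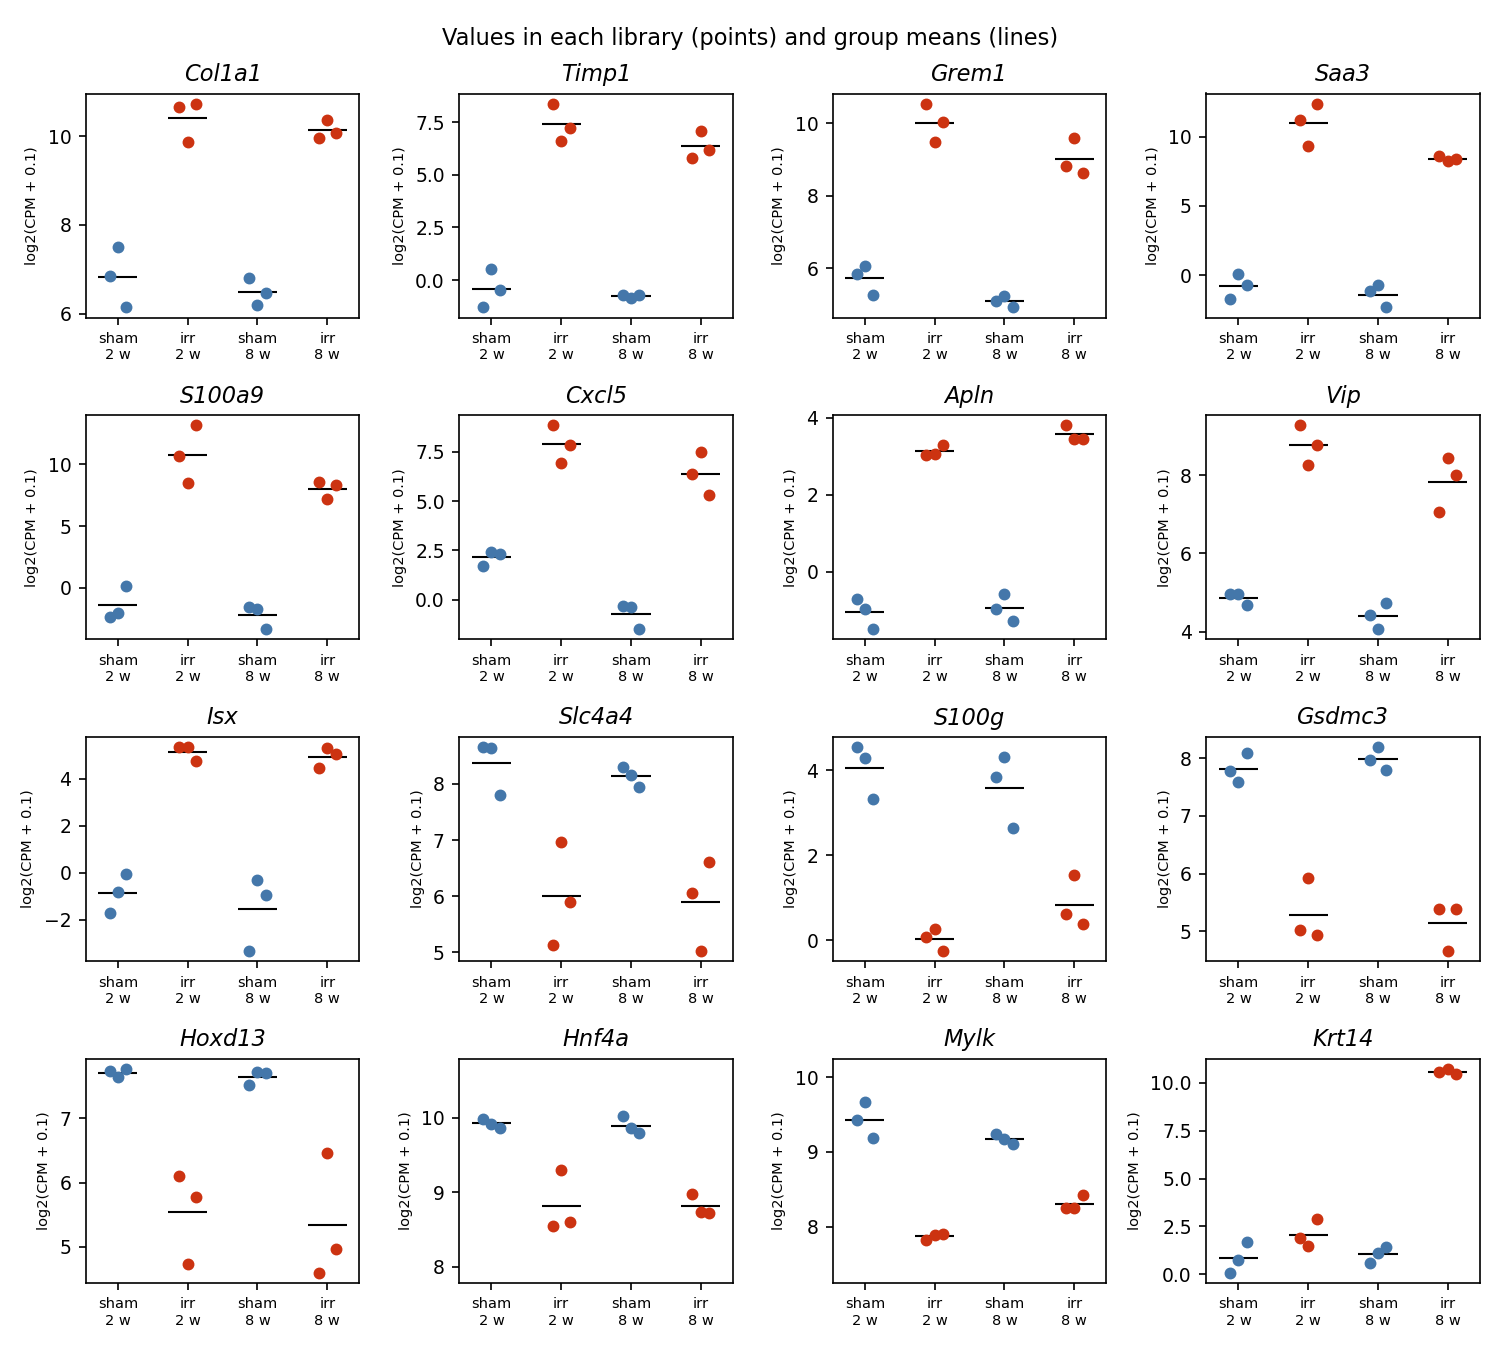
Values of 16 genes in each of the 12 libraries, as log2(CPM + 0.1), with sham in blue, irradiated in red and the mean of each group as a line. In 15 of the genes the irradiated and sham points are apart at 2 weeks and at 8 weeks, while Krt14 departs from sham clearly at 8 weeks, at 1381 to 1672 CPM.

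Many inflammatory genes rose over the pooled late times, with fewer of them called at 8 weeks than at 2 weeks in several lists. Neutrophil genes were higher in 18 of 19 cases (26.9% of all genes), all 18 in the core, with a median of 9.91, or 9.22 with genes absent from sham set at their lower bound. Genes with almost no counts in sham, here and in the lists below, were tested only because irradiated libraries held them. Their place among the higher members was in effect set by the filter, and they were not counted list by list. S100a9, a subunit of calprotectin, had 0.102, 0.153 and 1.02 CPM in the sham libraries and 1611, 354 and 8956 in the irradiated libraries at 2 weeks, and 0.254, 0.205 and 0 and 378, 146 and 316 at 8 weeks. Irradiated mouse 3 at 2 weeks was the highest and irradiated mouse 2 at 8 weeks the lowest, and each irradiated value exceeded each sham value (12.43 ± 1.12). Its partner S100a8 stood at 11.47 ± 1.11. Mmp8, neutrophil collagenase, had 3 counts over 6 sham libraries and 44242 over 6 irradiated ones, a ratio of 14380 (95% counting interval 4920 to 69730). For the formyl peptide receptor gene Fpr1 the sham total was 1 count (ratio 2935, 526 to 116000), and for Chil3, a chitinase-like protein of myeloid cells, 2 counts (ratio 13840, 3831 to 114300). Such intervals cover counting error only.

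Chemokine genes had 17 of 23 members higher and 3 lower (26.9% and 21.2% of all genes), with 17 higher at 2 weeks (21.6% of all genes) and 13 at 8 weeks (18.1%). Their summed level at 8 weeks, 613 to 784 CPM after irradiation, overlapped that of sham at 476 to 646 CPM. Cxcl3, a ligand of the neutrophil receptor Cxcr2, was at 0 in the 6 sham libraries and at 102, 17 and 644 CPM in the irradiated libraries at 2 weeks and 25.4, 33.7 and 15.6 at 8 weeks, at least 5504-fold higher against a floor of 3 counts over the sham group. Ccl3, a macrophage chemokine, was likewise at 0 in sham (at least 2805-fold higher). Cxcl5, another Cxcr2 ligand, had 3.17, 5.25 and 4.94 CPM in the sham libraries and 453, 123 and 226 in the irradiated libraries at 2 weeks, and 0.71, 0.665 and 0.259 and 81.5, 180.3 and 40.1 at 8 weeks (6.52 ± 0.55), without overlap. Cxcl1 (8.60), Cxcl2 (12.04) and the monocyte chemokine Ccl2 (8.25) rose, and Ccl28, an epithelial chemokine that draws IgA plasma cells, fell (-1.29 ± 0.18, adjusted p = 1.7e-04). Of 29 interleukin, TNF and receptor genes 24 were higher and 1 was lower, beside the same 26.9% and 21.2%. Il6 was at 0 in sham and ranged from 1.89 to 70.8 CPM after irradiation (at least 988-fold higher), and Il1b had 0.358, 0.561 and 0.306 CPM in the sham libraries and 377, 42.8 and 5844 in the irradiated libraries at 2 weeks, and 0.102, 0.358 and 0 and 160.5, 81.7 and 43.2 at 8 weeks. Irradiated mouse 3 at 2 weeks again held the highest Il1b value (11.54 ± 1.46). Csf3, the granulocyte growth factor, had 1 count in sham (ratio 3967, 712 to 156700). Tnf (5.38 ± 0.99), the oncostatin M receptor gene Osmr (3.13 ± 0.27) and the interleukin 4 receptor gene Il4ra (3.35 ± 0.34) were core genes, and Il22ra2, encoding a decoy receptor for interleukin 22, was lower (-2.65 ± 0.67, adjusted p = 0.0071).

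Acute phase and epithelial defense genes were higher in 19 of 23 cases, although their summed level at 8 weeks overlapped between irradiated (4796 to 7801 CPM) and sham libraries (6210 to 7667 CPM). Saa3, a serum amyloid A made outside the liver, had 0.204, 0.969 and 0.51 CPM in the sham libraries and 2294, 629 and 5271 in the irradiated libraries at 2 weeks, and 0.355, 0.512 and 0.103 and 389.9, 299 and 336 at 8 weeks. Values at 2 weeks spread from 629 to 5271 CPM and those at 8 weeks only from 299 to 390 (11.39 ± 0.76; 12.23 at 2 weeks and 10.01 at 8 weeks). Wfdc18 (5.25 ± 0.21, adjusted p = 1.1e-07) had the smallest p of the list, and haptoglobin (Hp) stood at 9.50 ± 0.71. Wfdc21 was at 0 in sham (at least 1568-fold higher). Reg3b, an antibacterial lectin, was at 0 in sham, 1.10 to 4.60 CPM after irradiation at 2 weeks and 19.5 to 460 CPM at 8 weeks. The value of 460 CPM came from the library with pancreatic transcripts. Without that library the fitted log2 fold change of Reg3b was 10.9 instead of 13.70. With sham at 0, both are fitted values without the floor, not measured ratios. Pigr, the receptor that carries IgA across the epithelium, was the lower member (-0.88 ± 0.20, adjusted p = 0.0036; 0.061 at 2 weeks alone). Macrophage and monocyte genes were higher in 21 of 23 cases, with Apoe at 139.8 ± 7.74 CPM in sham and 690.1 ± 133 CPM in irradiated rectum (SD, n = 6 each; log2 fold change 2.30 ± 0.13) and the Fc receptor genes Fcgr4 (7.24) and Fcgr1 (4.85). T, NK and innate lymphoid genes were higher in 14 of 17 cases, for instance Thy1 (1.62 ± 0.19), Cd3g (2.39 ± 0.44) and Ctla4, which had 2 counts in sham. Taken singly, only 10 of 17 were higher at 2 weeks (21.6% of all genes) and 5 of 17 at 8 weeks (18.1%). B and plasma cell genes were mixed, 7 higher and 2 lower of 17, beside 26.9% and 21.2% of all genes. Prdm1 (2.04) and Irf4 (2.34), regulators of plasma cells, rose. The follicular B cell genes Fcer2a (-3.59 ± 0.92, adjusted p = 0.0073) and Cr2 (-3.13 ± 0.85, adjusted p = 0.00999) fell. Neither of this pair was called by limma voom with sample quality weights, and Cr2 was not with replicate number as a block (adjusted p = 0.051). Interferon-stimulated genes were higher in 21 of 24 cases, Ifi44 (3.79), Usp18 (3.51) and Ifit1 (3.25) among them. At single times 24 were higher at 2 weeks (21.6% of all genes) and 13 at 8 weeks (18.1%), with medians of 3.68 and 1.59.

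Many endothelial genes rose at both late times. Endothelial genes were higher in 22 of 24 cases (26.9% of all genes), 19 of them in the core. Apln, the apelin gene, a ligand known from sprouting endothelial tip cells, had 0.511, 0.408 and 0.255 CPM in the sham libraries and 8.08, 8.26 and 9.76 in the irradiated libraries at 2 weeks, and 0.406, 0.563 and 0.31 and 13.8, 10.9 and 10.7 at 8 weeks. The 6 irradiated values fell in a narrow band (4.62 ± 0.21, adjusted p = 1.7e-07). Angpt2, the antagonist ligand of Tie2 (2.68 ± 0.18), Plvap, a component of endothelial diaphragms (2.09 ± 0.18), Cdh5, VE-cadherin (2.40 ± 0.25) and Pecam1 (1.58 ± 0.23) rose as well. All 12 leukocyte adhesion genes were higher. E-selectin (Sele), which appears on activated endothelium, had 0.102, 0.153 and 0 CPM in the sham libraries and 57.9, 17.1 and 23.9 in the irradiated libraries at 2 weeks, and 0.102, 0.0512 and 0 and 11.3, 4.9 and 3.38 at 8 weeks (7.95 ± 0.65). P-selectin (Selp, 5.71 ± 0.54) and Vcam1 (2.81 ± 0.28) accompanied it. Only 3 of 8 lymphatic endothelium genes were higher (26.9% of all genes), Pdpn (3.48) most clearly, and Pdpn is also made by fibroblasts. At 2 weeks 5 of 8 were higher (21.6% of all genes, list median 0.78) and at 8 weeks 1 was (18.1%, list median -0.19). Their summed level at 8 weeks overlapped between irradiated (141 to 186 CPM) and sham libraries (170 to 205 CPM). Among the remaining cell type lists, 6 of 10 mast cell genes, 4 of 9 tuft cell genes and 6 of 14 adipocyte genes were higher, and MHC class II genes had 3 higher and 1 lower of 10, beside the background of 26.9% higher and 21.2% lower. At single times the tuft and MHC class II calls were all at 2 weeks, 4 and 3 higher (21.6% of all genes). Adipocyte genes summed to 1392 CPM in irradiated mouse 3 at 8 weeks, the library with skeletal muscle transcripts, and to at most 714 CPM in the other irradiated libraries.

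Many absorptive colonocyte genes fell. Of 31 transport and absorption genes 20 were lower (11 core) and 4 higher, beside 21.2% and 26.9% of all genes, with a median of -0.93. At 2 weeks, when the squamous genes summed to at most 57.0 CPM, 14 of 31 were lower (14.5% of all genes). The part of the squamous transcripts at 8 weeks in these falls was not tested. The sodium bicarbonate cotransporter gene Slc4a4 (mm9, chr5:89315843-89668678) had 403, 398 and 223 CPM in the sham libraries and 34.8, 124 and 59.6 in the irradiated libraries at 2 weeks, and 317, 286 and 247 and 66.2, 32.4 and 97.1 at 8 weeks. Irradiated values stayed below sham values at both times (-2.17 ± 0.33, adjusted p = 2.8e-04; -2.23 at 2 weeks and -2.12 at 8 weeks). Atp12a, the colonic proton-potassium pump (-2.15 ± 0.28), Trpm6, a magnesium channel (-2.18 ± 0.33), the carbonic anhydrase genes Car1 (-3.02 ± 0.49) and Car4 (-1.96 ± 0.49) and the water channel Aqp8 (-1.67 ± 0.38) were lower. Car4 missed the threshold at 2 weeks alone (adjusted p = 0.15) and without irradiated mice 1 and 3 at 8 weeks (0.054). Car12, another carbonic anhydrase, went the other way, from 5.23 ± 0.831 CPM in sham to 50.2 ± 35.6 CPM in irradiated rectum (SD, n = 6 each; log2 fold change 2.98 ± 0.35).

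The promoters of Aqp8 and Car4 are shown as lower core genes with a CDX motif in the window, CDX factors being the homeobox regulators of intestinal identity. The motif TTTATNG, searched on both strands, is in capitals.
Aqp8, chr7:130605558-130605857, plus strand: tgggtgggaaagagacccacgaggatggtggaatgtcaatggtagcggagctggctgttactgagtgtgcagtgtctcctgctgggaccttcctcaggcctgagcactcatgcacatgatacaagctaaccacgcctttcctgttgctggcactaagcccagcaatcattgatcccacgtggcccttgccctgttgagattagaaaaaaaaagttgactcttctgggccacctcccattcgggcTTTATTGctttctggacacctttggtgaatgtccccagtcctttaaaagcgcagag
Car4, chr11:84771038-84771337, plus strand: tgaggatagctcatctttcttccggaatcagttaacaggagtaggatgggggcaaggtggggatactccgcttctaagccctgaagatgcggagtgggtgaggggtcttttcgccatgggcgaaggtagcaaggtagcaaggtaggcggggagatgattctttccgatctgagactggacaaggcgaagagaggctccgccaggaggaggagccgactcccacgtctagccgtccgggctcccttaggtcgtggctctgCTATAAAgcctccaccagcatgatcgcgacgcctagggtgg
The match began 6 bases before the start of Aqp8 and 9 bases past that of Car4, in windows like those of the metalloproteinases. In Car4 it lies on the opposite strand and overlaps TATAAA, the letters of a TATA box, so the shares given for this motif include such boxes.

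The lower core genes also held S100g, the calcium carrier calbindin-D9k of absorptive cells, with 23.3, 19.4 and 9.94 CPM in the sham libraries and 0.953, 1.1 and 0.74 in the irradiated libraries at 2 weeks, and 14.3, 19.6 and 6.1 and 1.43, 2.78 and 1.19 at 8 weeks. All irradiated values lay at or below 2.78 CPM and all sham values at or above 6.10 (-3.53 ± 0.40, adjusted p = 4.4e-05). The calcium channel gene Trpv6 (-1.81 ± 0.34) and Vdr, the vitamin D receptor gene (-1.66 ± 0.17, adjusted p = 2.6e-05), were lower with it. Hnf4a, a nuclear receptor that maintains enterocyte genes, had 1010, 968 and 933 CPM in the sham libraries and 375, 627 and 388 in the irradiated libraries at 2 weeks, and 1040, 929 and 889.7 and 505, 427 and 421 at 8 weeks (-1.07 ± 0.13, adjusted p = 6.3e-05), and its paralog Hnf4g stood at -1.44 ± 0.19. Hoxd13, which marks the hindmost gut, had 213, 199 and 218 CPM in the sham libraries and 68.9, 26.4 and 55 in the irradiated libraries at 2 weeks, and 184, 211 and 209 and 24.2, 87.7 and 31.1 at 8 weeks. The groups did not overlap (-2.07 ± 0.31; -2.07 at 2 weeks and -2.08 at 8 weeks; 95% interval of the difference -1.35 to 1.33). Hoxd12 (-3.41 ± 0.42), Hoxd10 (-2.03 ± 0.44), the neighboring Evx2 (-2.17 ± 0.24), Hoxa11 (-1.34 ± 0.15) and Hoxb13 (-1.18 ± 0.17) were lower in the core. By contrast Cdx2 rose from 7.06 ± 1.19 CPM in sham to 29.1 ± 8.39 CPM in irradiated rectum (SD, n = 6 each; log2 fold change 2.05 ± 0.20), and so did Isx, an intestinal homeobox gene known to repress vitamin A uptake genes, with 0.204, 0.459 and 0.866 CPM in the sham libraries and 40.4, 40.4 and 26.8 in the irradiated libraries at 2 weeks, and 0, 0.716 and 0.414 and 22.1, 38.9 and 32.7 at 8 weeks (6.23 ± 0.45). Apart from S100g and Hoxd12, the genes of this paragraph were chosen after their values were seen.

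Part of the metabolic genes fell too. Drug and xenobiotic metabolism had 18 of 36 members lower and 5 higher, beside 21.2% and 26.9% of all genes. At 2 weeks 11 were lower (14.5% of all genes) and at 8 weeks 20 were (13.1%), and the part of the squamous transcripts was not tested. Lower members were the cytochromes Cyp2s1 (-1.44 ± 0.15) and Cyp2w1 (-1.61 ± 0.19) and the flavin monooxygenase gene Fmo4 (-1.41 ± 0.16). Gsta2, a glutathione transferase gene with 6 counts in sham, ranged from 3.03 to 3.50 CPM in irradiated rectum at 8 weeks and reached at most 0.05 CPM at 2 weeks. Of 22 fatty acid oxidation and ketogenesis genes 16 were lower, most of them modestly (median -0.40), whereas 3 were lower at 2 weeks (14.5% of all genes) and 10 at 8 weeks (13.1%). The lipid sensor Ppara (-1.31 ± 0.20), the carnitine carrier gene Slc25a20 (-0.91 ± 0.18) and Acadm (-0.67 ± 0.14) had the smallest p. Otc, a urea cycle enzyme of enterocyte mitochondria (-3.41 ± 0.31), and Nags, which makes the activator of that cycle (-2.44 ± 0.25), were lower. Gsdmc3, a gasdermin of the intestinal epithelium, had 218, 192 and 272 CPM in the sham libraries and 32.3, 60.5 and 30.3 in the irradiated libraries at 2 weeks, and 251, 292 and 223 and 41.8, 25.2 and 41.8 at 8 weeks. Its irradiated values lay at or below 60.5 CPM and its sham values at or above 192 (-2.64 ± 0.21, adjusted p = 3.9e-06), with the related copies Gsdmc2 (-1.66 ± 0.17) and Gsdmc4 (-1.28 ± 0.18) beside it, between which reads may be split. The connexin gene Gjb5 (-1.65 ± 0.17) was lower at both times. Nags, the gasdermins and Gjb5 were chosen after their values were seen.

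The largest falls by the rule of size were in AF529169, with 11.3, 11.4 and 12.6 CPM in the sham libraries and 0.502, 0.6 and 0.247 in the irradiated libraries at 2 weeks, and 8.93, 9.77 and 9.88 and 0.395, 0.354 and 0.199 at 8 weeks. Irradiated libraries held at most 0.60 CPM of it and sham libraries at least 8.93 (-4.79 ± 0.22, adjusted p = 1.7e-07). Inmt, an amine N-methyltransferase (-3.98 ± 0.53), Wnt8b, a Wnt ligand (-3.46 ± 0.22), Pkd2l1, a channel known from taste and spinal neurons (-3.72 ± 0.71), Ngb, neuroglobin (-3.26 ± 0.26), Odf3b (-3.46 ± 0.41) and Higd1c (-3.33 ± 0.26) followed. None of them exceeded 25 CPM on average in sham rectum.

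Crypt, regenerative and secretory genes did not move as 1 group. Of 24 regenerative epithelium genes 18 were higher (26.9% of all genes), among them Spp1, osteopontin, also a macrophage gene (9.07 ± 0.74), and Ly6c1, also an endothelial gene (2.14 ± 0.21). The crypt stem cell and Wnt response list had 6 of 19 higher and 5 lower, shares near the background of 26.9% and 21.2%. Its members differed between the times, and 4 were called for the difference (1.28% of all genes). At 2 weeks 10 were lower (14.5% of all genes, list median -0.48) and at 8 weeks 3 were (13.1%, list median 0.24). Prom1 (1.50 ± 0.14), Smoc2 (1.52 ± 0.17) and the hyaluronan receptor Cd44 (3.87 ± 0.48), which leukocytes share, were higher and the Wnt inhibitor Rnf43 was lower (-0.87 ± 0.08, adjusted p = 1.1e-05). Olfm4, a stem cell marker of the small intestine that neutrophils also make, was at 0 in sham and ranged from 0.248 to 15.8 CPM after irradiation (at least 169-fold higher). Goblet cell genes were higher in 7 and lower in 4 of 18 cases, beside the same background of 26.9% and 21.2%. Spink4 (2.66 ± 0.22) and Agr2 (1.01 ± 0.19) led the higher members, and St6galnac1 had the smallest p of the lower ones. The summed goblet level overlapped between irradiated and sham libraries at 2 weeks (9740 to 18790 and 13270 to 14280 CPM). It also did at 8 weeks (8052 to 18700 and 18410 to 19770 CPM). Enteroendocrine genes were higher in 8 of 16 cases (background 26.9%), including somatostatin (Sst, 1.51 ± 0.19), cholecystokinin (Cck, 4.08 ± 0.52) and Scg2 (1.28 ± 0.15). At 2 weeks 6 were higher and 2 lower (21.6% and 14.5% of all genes), and at 8 weeks 5 and 0 (18.1% and 13.1%). Their summed level overlapped at 2 weeks (irradiated 440 to 716 CPM, sham 412 to 491 CPM). It did not at 8 weeks (533 to 868 and 467 to 504 CPM).

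Genes of enteric nerves rose in 13 of 19 cases (26.9% of all genes). Their summed level at 2 weeks was 1109 to 1466 CPM after irradiation and 691 to 749 CPM in sham. At 8 weeks the irradiated range, 653 to 1084 CPM, overlapped that of sham at 613 to 842 CPM. Vip, the vasoactive intestinal peptide gene, had 30.9, 31.1 and 25.6 CPM in the sham libraries and 617, 307 and 434 in the irradiated libraries at 2 weeks, and 21.4, 16.7 and 26.5 and 133, 349 and 257 at 8 weeks, with no overlap between the arms (3.74 ± 0.26, adjusted p = 2.0e-06). Galanin (Gal) rose from 1.42 ± 0.509 CPM in sham to 93 ± 39.4 CPM in irradiated rectum (SD, n = 6 each; log2 fold change 6.00 ± 0.43), and Ret, the receptor for glial cell line-derived growth factors, was higher (1.84 ± 0.19). Erbb3, which epithelial cells also express, was the lower member (-0.81 ± 0.17, adjusted p = 0.0023). Further neuropeptide genes, chosen after their values were seen, were Cartpt (5.88 ± 0.39), the enkephalin precursor Penk (3.61 ± 0.28) and the substance P precursor Tac1 (2.70 ± 0.20).

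Of 30 p53 target genes 13 were higher and 3 lower, beside 26.9% and 21.2% of all genes, with a median of 0.30. Trp53inp1 had the smallest p of the lower ones. At 2 weeks 11 were higher and 1 lower (21.6% and 14.5% of all genes), and at 8 weeks 8 and 3 (18.1% and 13.1%). The DEGs of this list, 3 of 30 beside 14.8% of all genes, were Phlda3 (2.55 ± 0.23), Plk2 (1.53 ± 0.18) and Eda2r (1.83 ± 0.22). Phlda3, a p53-induced repressor of Akt, had 8.33, 8.57 and 7.13 CPM in the sham libraries and 35.2, 28 and 35 in the irradiated libraries at 2 weeks, and 9.39, 6.6 and 7.14 and 54.1, 91.8 and 47.8 at 8 weeks, the irradiated values all above the sham values. Of 13 senescence-linked genes 6 were higher (26.9% of all genes), 5 of them as DEGs (14.8% of all genes). At 8 weeks 1 member was lower (13.1% of all genes). Cdkn2a, which encodes the cell cycle inhibitors p16 and Arf and was named after its values were seen, had 0, 0 and 0 CPM in the sham libraries and 0, 0.2 and 0.493 in the irradiated libraries at 2 weeks, and 0, 0.102 and 0 and 4.44, 5.26 and 4.02 at 8 weeks, from 2 counts in sham and 289 in irradiated libraries (ratio 141, counting interval 38.6 to 1169). Its irradiated values at 8 weeks exceeded those at 2 weeks, when 1 irradiated library was at 0. The smallest p-values were those of the IGF binding protein genes Igfbp4 (2.51 ± 0.18), Igfbp5 (2.90 ± 0.26) and Igfbp7 (1.92 ± 0.17), all of which fibroblasts and vessels also express. Of 24 mitosis genes 2 were higher (background 26.9%), a count that ran from 0 to 8 under the alternatives, and of 21 DNA replication genes 4 were higher, with the ribonucleotide reductase gene Rrm2 in the core (1.07 ± 0.22). The amino acid synthesis genes Asns (1.52 ± 0.08, adjusted p = 3.5e-07) and Psat1 (2.53 ± 0.22), chosen after their values were seen, rose in every irradiated library; Asns had 19.1, 19.1 and 21.3 CPM in the sham libraries and 55.9, 51.7 and 57.2 in the irradiated libraries at 2 weeks, and 14.2, 17.8 and 16 and 51.4, 46.1 and 45.7 at 8 weeks.

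**Figure D3:**
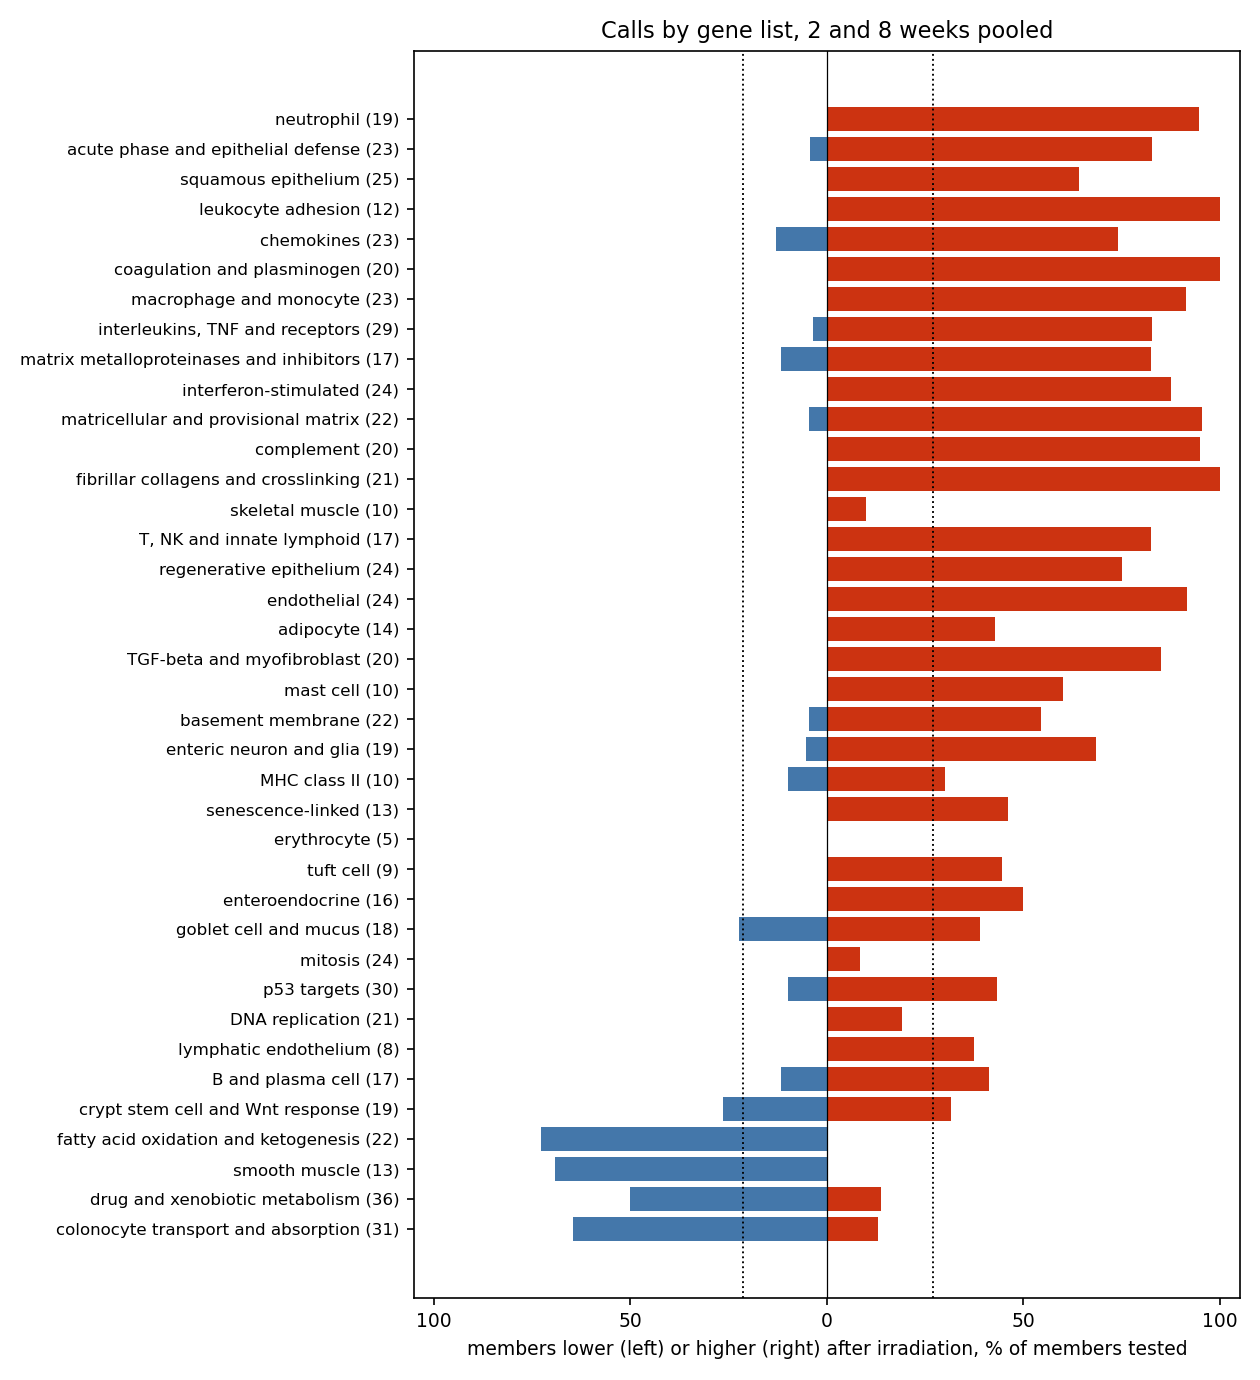
Share of the tested members of each gene list (number in parentheses) called higher (red, right) or lower (blue, left) in the pooled comparison at adjusted p under 0.05, ordered by median log2 fold change. Dotted lines mark the background of 26.9% higher and 21.2% lower, and colonocyte, drug metabolism, smooth muscle and fatty acid oxidation genes are the lists with more lower than higher members.

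The pooled comparison also averages effects that differ between the times. Among the 199 genes whose effects differed, 122 were more positive (0.784%) and 77 more negative (0.495%) at 8 weeks. The squamous epithelium list is the plainest case: its median was 0.18 at 2 weeks and 10.42 at 8 weeks. In it 25 of 25 members were higher at 8 weeks (18.1% of all genes) and 4 at 2 weeks (21.6%), and 14 differed between the times (1.28% of all genes). Krt14, a keratin of basal squamous cells, had 0.971, 1.58 and 3.16 CPM in the sham libraries and 3.66, 2.65 and 7.2 in the irradiated libraries at 2 weeks, and 1.42, 2.1 and 2.59 and 1523, 1672 and 1381 at 8 weeks. The pooled log2 fold change of 5.63 ± 1.82 (adjusted p = 0.024) thus rested on 8 weeks (8 weeks minus 2 weeks, 8.31), and squamous epithelium in the sample and a change within rectal cells cannot be told apart. Barx2 (-0.95 at 2 weeks and 3.26 at 8 weeks), Csta1 (-1.82 at 2 weeks and 3.06 at 8 weeks) and Pkp1 (-0.47 at 2 weeks and 1.94 at 8 weeks), genes also expressed in squamous epithelium, had opposite signs at the 2 times and were not called in the pooled fit. In the other direction Mptx1, a mucosal pentraxin of the colon, had 829, 802 and 785 CPM in the sham libraries and 285, 349 and 207 in the irradiated libraries at 2 weeks, and 887, 1197 and 1097 and 76.5, 50.5 and 58.8 at 8 weeks. It was lower at both times and more so at 8 weeks (-1.52 at 2 weeks and -4.10 at 8 weeks; difference -2.57, adjusted p = 0.0029). Ifit3 was higher at both times and more so at 2 weeks (3.44 at 2 weeks and 1.28 at 8 weeks; difference -2.16, adjusted p = 0.0041), as Car12 was at 8 weeks (2.04 at 2 weeks and 3.91 at 8 weeks; difference 1.87, adjusted p = 0.027). The counts of such genes rested on single libraries: without irradiated mouse 2 at 2 weeks, the mildest, 377 were more positive and 845 more negative, and without sham mouse 2 at 8 weeks 44 and 28.

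Between sham rectum at 2 and at 8 weeks 90 of 15566 genes were called (0.578%), among them 5 higher and 2 lower core genes. These tests share the sham libraries with the late comparison.

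Libraries of the earlier times, which the late comparison did not use, held part of the core response at 3 days. Of 1918 higher core genes 1394 were tested there and 337 were called higher (24.2%; 10.4% of all genes), with a median log2 fold change of 0.45. Of 343 lower core genes 327 were tested and 109 were called lower (33.3%; 10.1% of all genes), with a median of -0.51. At 4 h 110 of 1334 higher core genes were higher (8.25%; 5.78% of all genes) and 27 of 331 lower core genes were lower (8.16%; 5.72%). There 43 of the higher core genes were lower and 21 of the lower core genes were higher, with medians of -0.09 and 0.02. At 1 day the counts were 71 of 1344 (5.28%; 1.97%) and 22 of 327 (6.73%; 2.03%), beside 31 and 6 in the opposite direction, with medians of 0.04 and -0.09. The 4 h and 1 day comparisons share their 3 sham libraries, and set against the 3-day sham mice instead, the 1 day counts were 119 and 50. Without irradiated mouse 1 or mouse 2 the higher count at 3 days was 202 or 203. By 3 days the p53 target Phlda3 stood at 5.28 and Eda2r at 4.56 on the log2 scale, Sulf2 at 3.88 and Wfdc18 at 3.61, while Grem1 stood at 0.99. Vip (-0.24), Hoxd13 (-0.52) and Hnf4a (0.13) were not called at 3 days.

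**Figure D4:**
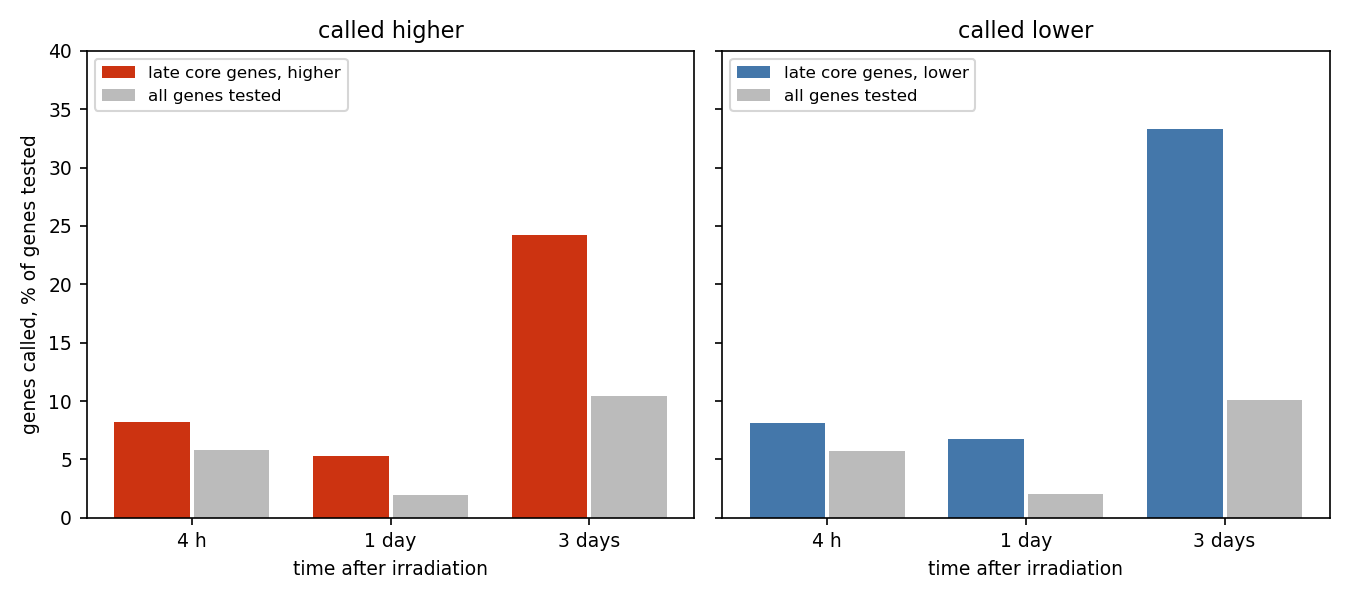
Late core genes in the mice sampled at 4 h, at 1 day and at 3 days, as the percentage of tested genes called at adjusted p under 0.05 in the direction of the late change (colored bars: higher on the left, lower on the right), beside the percentage of all genes tested (gray). The colored bars exceed the gray ones most at 3 days, at 24.2% and 33.3%.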

How the data were processed

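Poly(A) RNA of mouse rectum was sequenced in paired ends. Per the submitters' processing notes the tools were fastp 0.18.0, HISAT2, StringTie 1.3.1 and RSEM, with build mm9, and the authors deposited 1 table of whole read counts per gene and 1 table of FPKM (fragments scaled by gene length and library size). With the counting program, annotation and strand setting not given in the sources used here, overlapping antisense genes and close paralogs are uncertain. Columns were assigned to samples by the column names in the labels. Library totals were 17966356 to 23281174 counts, and the intervals on count ratios cover counting error only.

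Counts of the 12 late libraries were filtered with filterByExpr on the 4 groups, scaled by TMM and fitted with edgeR 4.0.16 (R 4.3.3) by the quasi-likelihood test with time as a block, p-values being adjusted by Benjamini-Hochberg over 15566 genes. DEGs passed the thresholds of the study (0.01 for the adjusted p, 1 for the size of the log2 fold change), and list members were called at an adjusted p under 0.05. Effects at each time and their difference came from a fit with 4 group means, and the 4 h, 1 day and 3 day comparisons from separate fits of 6 libraries, the 1 day mice using the 4 h sham mice. For lower bounds on a fold change, a group at 0 was set to a floor of 3 counts over the group. Fitted log2 fold changes do not use this floor. FPKM, as log2(FPKM + 1), served only as an alternative with limma 3.58.1, and DESeq2 1.42.0 as another. Promoters ran from 250 bases before to 50 after the gene start in the mm9 genome with GENCODE vM1, found for 14371 of 14633 named genes tested.

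The members, gene lists and tests were chosen with earlier results of these data known, and the pancreatic list after these values were seen. Named genes were the 10 core genes of largest change in each direction with a mean of at least 1 CPM and no overlap, the 3 list members of smallest p with 1 opposing member, the hub genes named by the study, 5 genes per direction found only by pooling and 5 per direction with the smallest p for a difference between times. A part of these is given. Genes named beyond this rule (Mmp3, Mmp10, Mmp13, Col3a1, Plat, Tgfb1, C3, Hp, Car1, Car4, Aqp8, Cr2, Bmp2, Olfm4 and others marked in the text) were chosen after their values were seen. The fits were tested on simulated counts. Alternatives were other scalings, filters and tests, the replicate number as a block, all 27 libraries in 1 fit, each time alone and leaving out libraries. Some genes are not reported here.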

Additional observations from a re-analysis of the deposited data

Results flagged for a closer look

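In 350 gene-by-group sets of 6 libraries (irradiated or sham over both times), 12 had 1 library far from the other 5, where chance alone flags about 1 in 20. Among irradiated libraries these were mouse 1 at 8 weeks for Sulf2 (69.5 CPM), Gal (25.4 CPM) and Cpb1 (1320 CPM), the last a pancreatic carboxypeptidase. Among sham libraries at 2 weeks these were mouse 3 for Mmp7 (0.204 CPM, the others at 0) and mouse 2 for Tnf (0 CPM) and Spp1 (0.663 CPM). Among sham libraries at 8 weeks these were mouse 2 for Fpr1 (0.0512 CPM), Ctla4 (0.102 CPM), Cdkn2a (0.102 CPM, the others at 0) and Gsta2 (0.205 CPM), and mouse 3 for Csf3 (0.0517 CPM) and Higd1c (13.1 CPM). Most of the sham values rest on a few counts.

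The radiation effect differed between the times by the test of the difference (8 weeks minus 2 weeks, log2) for Krt14 (8.31), Csta1 (4.88), Barx2 (4.21), Pkp1 (2.41) and Car12 (1.87). It was more negative at 8 weeks for Mptx1 (-2.57), Ifit3 (-2.16), the amino acid transporter gene Slc36a1 (-1.32) and the folate enzyme gene Mthfd1l (-1.19).

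Transcripts of tissues other than rectal mucosa were found in single libraries: pancreatic acinar genes summed to 12100 CPM in irradiated mouse 1 at 8 weeks, and skeletal muscle genes to 3530 CPM in irradiated mouse 3 at 8 weeks. Their part in the results was not tested beyond leaving these libraries out.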

How the results depend on the processing

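Of the 175 genes drawn on for naming, 157 kept their direction and side of the threshold under every alternative that gave a value (26 to 31 per gene). At 2 weeks alone Pigr, Cd3g (adjusted p = 0.054), Erbb3 (0.11) and Rrm2 (0.080) lost their call, as Il22ra2 did at 8 weeks alone (0.12). Krt14 lost it at 2 weeks alone (0.14), with the replicate block (0.059) and without any 1 sham mouse at 8 weeks (0.070 to 0.079). Opposite signs appeared for 4 genes at 1 time alone: at 2 weeks Csta1 (-1.82), Barx2 (-0.95) and Pkp1 (-0.48), and at 8 weeks Mthfd1l (-0.22). With FPKM in place of counts there were fewer DEGs and core genes but more effects that differed between times. On log2(FPKM + 1) with a mean FPKM of at least 1 there were 1486 DEGs (1245 higher, 241 lower), 960 higher and 146 lower core genes, 1451 DEGs at 2 weeks and 1195 at 8 weeks, and 200 effects more positive at 8 weeks. With no minimum the counts were 1443 (1203 and 240), 940 and 147, 1352 and 1170, and 263. With 0.1 as the pseudocount, 329 DEGs were lower, 207 core genes were lower and 195 effects were more positive. At 2 weeks alone there were 867 DEGs (668 higher, 199 lower) and 2439 higher and 1376 lower genes at an adjusted p under 0.05, against 2288 DEGs at 2 weeks in the fit of all 12 libraries.

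The number of effects that differed between times depended most on the processing. It was 416 more positive and 512 more negative with DESeq2, 352 and 396 with all 27 libraries, 374 and 568 without irradiated mice 2 and 3 at 2 weeks, and 72 and 16 without irradiated mice 1 and 3 at 8 weeks, where 961 genes were DEGs at 8 weeks. It was 190 more negative with limma voom and 50 with total counts. These 2 omissions, the removal of unnamed models and the 3-day sham were chosen after seeing the data. Leaving out each library gave 44 to 377 more positive and 28 to 845 more negative effects, 2437 to 3130 DEGs (1978 to 2544 higher, 441 to 586 lower), 1716 to 2072 higher and 300 to 415 lower core genes, 1391 to 3046 DEGs at 2 weeks and 1072 to 2292 at 8 weeks. For core genes at earlier times it gave 72 to 99 higher and 12 to 30 lower at 4 h, 41 to 68 and 9 to 29 at 1 day, and 202 to 364 and 74 to 109 at 3 days. DESeq2 gave 46 lower core genes at 1 day, and the 3-day sham mice 119 higher and 50 lower. The cause of these shifts was not tested.

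Replicate numbers did not pair the samples, with same-number correlations of 0.0283, -0.0896 and 0.0664 at 2 weeks and -0.0029, 0.0288 and 0.112 at 8 weeks. With the number as a replicate block there were 2332 DEGs (1875 higher, 457 lower), 1664 higher and 321 lower core genes, and 50 and 29 effects that differed between times. With 3 mice per group, intervals of the difference between times stayed wide for most core genes, and genes absent from sham have no upper bound on their fold change.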
